A study of Mus musculus with 6 samples.

Results

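GABA is the main inhibitory transmitter of the forebrain, and nearly all neurons of the nucleus accumbens, the ventral striatum, release it. Neurons make GABA from glutamate with 2 glutamate decarboxylases, load it into vesicles with a single vesicular carrier, and signal through GABA-A channels held in place by the scaffold gephyrin and through GABA-B receptors coupled to G proteins. Released GABA is taken up by plasma membrane carriers of neurons and astrocytes and is then broken down in mitochondria. The genes described here are 8 genes of this cycle, chosen by symbol from 21540 gene records, of which 14959 were tested by the authors: Gad1, Gad2, Slc32a1, Slc6a11, Abat, Gphn, Gabbr1 and Gabbr2. All 8 had exactly 1 record each, and all 8 were tested.

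The tissue came from C57BL/6 mice injected intraperitoneally once a day, 7 times in all, with cocaine at 20 mg/kg (3 libraries) or with saline (3 libraries), and was taken 4 h into withdrawal in both groups. The labels do not say whether a library was 1 animal or a pool, so the spread behind the authors' p-values may be technical. The authors' deposited table holds 1 value per group and gene, read here as FPKM (fragments scaled to transcript length and to the library total). Beside them stand a p-value, a q-value and a log2 fold change of cocaine over saline. The table holds no value per library, so no SD and no range over animals can stand beside the levels, and the depth is unknown. The series title concerns Tet1 and 5-hydroxymethylcytosine, the product of its action on methylated CpG sites, and the comparison asks which transcripts differed after repeated cocaine.

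None of the 8 genes passed at a q below 0.05 in the authors' deposited table, where 1.23% of all tested records did. At an unadjusted p under 0.05 in the authors' deposited table, Abat (log2 fold change 0.13) was higher after cocaine, and Slc32a1 (-0.063) and Slc6a11 (-0.061) were lower. These are 3 of 8, against 5.76% of all tested records (2.02% higher and 3.74% lower). Among the 4377 tested records that reached 20 FPKM, a level that all 8 genes exceeded, the share was 11.6% (3.72% higher and 7.90% lower). That level was chosen after the values were seen. The median log2 fold change of the 8 genes was -0.027, beside -0.022 over all tested records, and 7 of the 8 lay within 0.1 of 0, as did 79.4% of the records of at least 20 FPKM.

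The promoters of the 2 decarboxylases and of the vesicular carrier, which together mark a neuron as GABAergic, are shown because the study is about CpG modification, and that of Gabbr2 because it holds the most CpG sites among the matched genes. Each window runs from 250 bases before to 50 bases after the RefSeq gene start (build GRCm38.p6, later than the authors' build), written 5′ to 3′ with every CpG in capitals.
Gad1, chr2:70561879-70562178, plus strand: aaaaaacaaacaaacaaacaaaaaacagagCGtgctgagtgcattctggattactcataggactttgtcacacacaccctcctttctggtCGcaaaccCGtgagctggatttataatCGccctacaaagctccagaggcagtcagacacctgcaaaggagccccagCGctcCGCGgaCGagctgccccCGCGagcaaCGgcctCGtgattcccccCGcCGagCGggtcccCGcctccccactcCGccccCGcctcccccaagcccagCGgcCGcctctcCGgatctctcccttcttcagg
Gad2, chr2:22622077-22622376, plus strand: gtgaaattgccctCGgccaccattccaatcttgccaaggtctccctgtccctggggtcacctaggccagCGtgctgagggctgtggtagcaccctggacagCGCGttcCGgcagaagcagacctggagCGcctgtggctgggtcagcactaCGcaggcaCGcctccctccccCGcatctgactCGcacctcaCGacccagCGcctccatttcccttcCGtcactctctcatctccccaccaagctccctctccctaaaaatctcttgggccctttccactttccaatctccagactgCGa
Slc32a1, chr2:158610508-158610807, plus strand: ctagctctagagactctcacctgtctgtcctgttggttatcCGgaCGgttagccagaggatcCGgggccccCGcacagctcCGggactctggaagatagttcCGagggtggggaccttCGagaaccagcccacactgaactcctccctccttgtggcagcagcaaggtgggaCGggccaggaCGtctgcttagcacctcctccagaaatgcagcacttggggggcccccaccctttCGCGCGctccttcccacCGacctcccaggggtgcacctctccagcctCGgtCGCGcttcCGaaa
Gabbr2, chr4:46991665-46991964, minus strand: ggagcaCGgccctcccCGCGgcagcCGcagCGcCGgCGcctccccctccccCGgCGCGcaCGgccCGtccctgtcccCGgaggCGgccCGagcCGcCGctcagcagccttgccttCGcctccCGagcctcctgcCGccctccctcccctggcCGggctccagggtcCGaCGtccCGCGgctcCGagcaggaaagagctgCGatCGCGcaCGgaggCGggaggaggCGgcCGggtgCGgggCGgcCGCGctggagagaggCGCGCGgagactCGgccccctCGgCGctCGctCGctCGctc
The Gad2 window held 14 CpG sites, that of Slc32a1 17, that of Gad1 21 and that of Gabbr2 46. A promoter of the table was found for 7 of the 8 genes, all but Abat, and the other 3 windows held 18 sites (Gabbr1), 32 (Slc6a11) and 42 (Gphn). All 7 lay above the median of 7 CpG sites over all 32851 promoter windows of this length, and 98.4% of those windows held fewer than Gabbr2, against 63.7% for Gad2. Searched on both strands, the letters GGGCGG, a GC box, occurred in 5 of the 7 windows and in 35.7% of all windows. TATAAA occurred in that of Gad1 only and in 13.6% of all windows. The cyclic AMP response element TGACGTCA and its shorter form TGACGT, which lies within it, occurred in 0 of the 7 windows and in 1.79% and 7.51% of all. No methylation or hydroxymethylation was measured in these libraries.

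The 2 decarboxylases stood high and close to equal in the groups. Gad1 encodes GAD67, which makes most of the basal GABA pool, and had 317 FPKM in the cocaine group and 324 FPKM in the saline group. Only 0.969% of tested records had a higher group value than Gad1. Its log2 fold change in the authors' deposited table was -0.033 (p = 0.385, q = 0.99998). Gad2 encodes GAD65, the form held at nerve terminals, and had 124 FPKM in the cocaine group and 123 FPKM in the saline group. Its deposited log2 fold change, 0.0044, was the smallest of the 8 in size in the authors' deposited table (p = 0.820). In FPKM, which corrects for transcript length, Gad1 exceeded Gad2 by 2.56 times after cocaine and 2.63 times after saline.

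The precision of these values was read back from the authors' p-values. If the deposited p is taken as a two-sided normal test of the log2 fold change, it implies a standard error for each gene and hence a 95% interval. For Gad2 the standard error was 0.019, with an interval of -0.034 to 0.042. Among the 277 tested genes within 1.2-fold of its level, 3.61% had a smaller one and the median was 0.054. For Gad1 it was 0.038, with an interval of -0.11 to 0.042. Under that assumption the interval runs from -2.30% to 2.98% for Gad2 and from -7.25% to 2.95% for Gad1. The spread behind the p-values may be technical, so these intervals may not cover the variation between animals. They also leave out the choice of scaling. Centring on the median shifts every log2 fold change by 0.021, more than the implied standard error of Gad2.

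**Figure D1:**
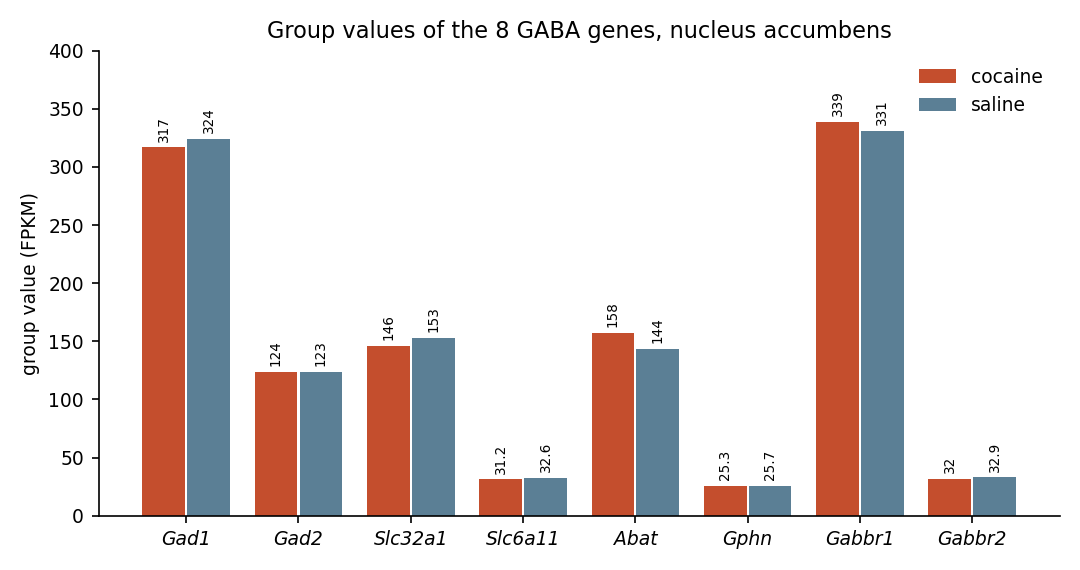
Group values in FPKM (vertical axis, from 0) of the 8 genes in the cocaine group (left bar of each pair) and the saline group (right bar). Each bar is the authors' single value over 3 libraries, so no error bars can be drawn; Gabbr1 and Gad1 stand above 300 FPKM in both groups, and the bars of a pair differ most for Abat, at 158 and 144 FPKM.

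Slc32a1 encodes VGAT, the carrier that loads GABA and glycine into synaptic vesicles. It had 146 FPKM in the cocaine group and 153 FPKM in the saline group. In the authors' deposited table its log2 fold change was -0.063 (p = 0.0288, q = 0.880), which did not pass, and the implied 95% interval was -0.12 to -0.0065. Its longest transcript has a GC content of 61.9%, against a median of 49.9% over tested genes of at least 1 FPKM. Across 12639 genes, which are not replicates and share these libraries, the fold change ran with GC content at a Spearman's rho of -0.30. With the trend in GC content and transcript length removed the log2 fold change of Slc32a1 was -0.00097. The ratio of Gad1 to Slc32a1 was 2.17 after cocaine and 2.12 after saline. An annotated antisense gene overlaps Slc32a1 (Gm14205) and another overlaps Gad1 (Gad1os). Genes on the opposite strand also overlap Slc6a11 (the pseudogene Gm8132) and Gphn (Gm48226, a noncoding RNA, and the pseudogenes Gm18899 and Gm48224). These overlaps are of whole gene spans, introns included, and whether exons overlap was not measured. None of these partners has a record of its own in the authors' deposited table. The strand setting of the counting is not given, so whether reads from any shared exonic stretch were assigned to a strand is unknown.

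Slc6a11 encodes GAT3, a plasma membrane GABA carrier found mainly on astrocytes in the rodent brain. It had 31.2 FPKM in the cocaine group and 32.6 FPKM in the saline group. In the authors' deposited table its log2 fold change was -0.061, past no threshold on q (p = 0.0387, q = 0.99998), with an implied interval of -0.12 to -0.0032, and it was -0.031 with the GC content and length trend removed. None of the 3 tested members of the list of other uptake carriers passed in the authors' deposited table (0 at a raw p under 0.05). Among all tested records 1.23% passed on q and 5.76% had a raw p under 0.05. All 3 carriers lay below 0, where 41.0% of all tested records lay above 0. Slc6a13, a carrier of meninges and vessels as well as liver and kidney, had 0.873 and 1.11 FPKM in the cocaine and saline groups (p = 0.492 in the authors' deposited table), and Slc6a12 was not tested.

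Abat showed the largest difference of the 8 genes. It encodes GABA transaminase, the mitochondrial enzyme that converts GABA to succinic semialdehyde. Abat had 158 FPKM in the cocaine group and 144 FPKM in the saline group. In the authors' deposited table the log2 fold change was 0.13 (p = 0.0159, q = 0.636), a ratio of 1.10 that did not pass the threshold. The implied 95% interval was 0.025 to 0.24, or a change between 1.75% and 18.3%. With the GC content and length trend removed the value was 0.15. Among the 210 tested genes within 1.2-fold of its level, 1.90% had a higher log2 fold change, as a description of these libraries. The ratio of the Gad1 transcript level to that of Abat was 2.01 after cocaine and 2.26 after saline.

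Of the 6 enzymes of the GABA shunt and of its cofactor pyridoxal phosphate, 1 fell, 0 rose and 5 did not pass, and the list median was -0.051. Among all tested records 1.23% passed on q. The fall was Pdxp, the phosphatase that removes pyridoxal phosphate, the cofactor of both decarboxylases and of GABA transaminase. It had 77.3 FPKM in the cocaine group and 82.5 FPKM in the saline group (log2 fold change -0.095, q = 0.0321 in the authors' deposited table). Pdxk, the kinase that makes the cofactor, had 95.1 and 95.9 FPKM in the cocaine and saline groups (p = 0.743 in the authors' deposited table). Aldh5a1, which oxidises succinic semialdehyde in the step after Abat, had 21.2 FPKM in the cocaine group and 21.3 FPKM in the saline group (p = 0.812 in the authors' deposited table).

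None of the 13 genes that supply glutamine and glutamate passed in the authors' deposited table (median 0.0048). At a raw p under 0.05, 1 was higher and 0 lower. Of all tested records, 2.02% were higher and 3.74% lower at that p, and 1.23% passed on q. Slc1a2, the astrocytic glutamate carrier GLT-1, had 453 FPKM in the cocaine group and 377 FPKM in the saline group. By the authors' deposited table the log2 fold change was 0.26 and missed the threshold (p = 0.0345, q = 0.968). Glul, the astrocytic glutamine synthetase, had 629 FPKM in the cocaine group and 620 FPKM in the saline group (p = 0.610 in the authors' deposited table).

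Slc6a11, Abat and Slc1a2 are all expressed by astrocytes, so the astrocyte markers are given beside them. Of 12 such markers, 6 lay above 0 and 6 below, and 0 passed in the authors' deposited table, where 1.23% of all tested records did. At a raw p under 0.05, 2 were higher and 2 lower, beside 2.02% and 3.74% of all tested records. Their summed level was 1164 FPKM in the cocaine group and 1171 FPKM in the saline group, and none was at 0. Aldoc alone gave 787 FPKM of the cocaine sum and 796 FPKM of the saline sum, so the sums mostly follow that gene. Aqp4, an astrocytic water channel, had 14.3 FPKM in the cocaine group and 12.5 FPKM in the saline group, while Gfap, an intermediate filament gene, had 10.8 and 12.1 FPKM in the cocaine and saline groups. In whole tissue, fewer cells of a type and less RNA per cell cannot be told apart.

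**Figure D2:**
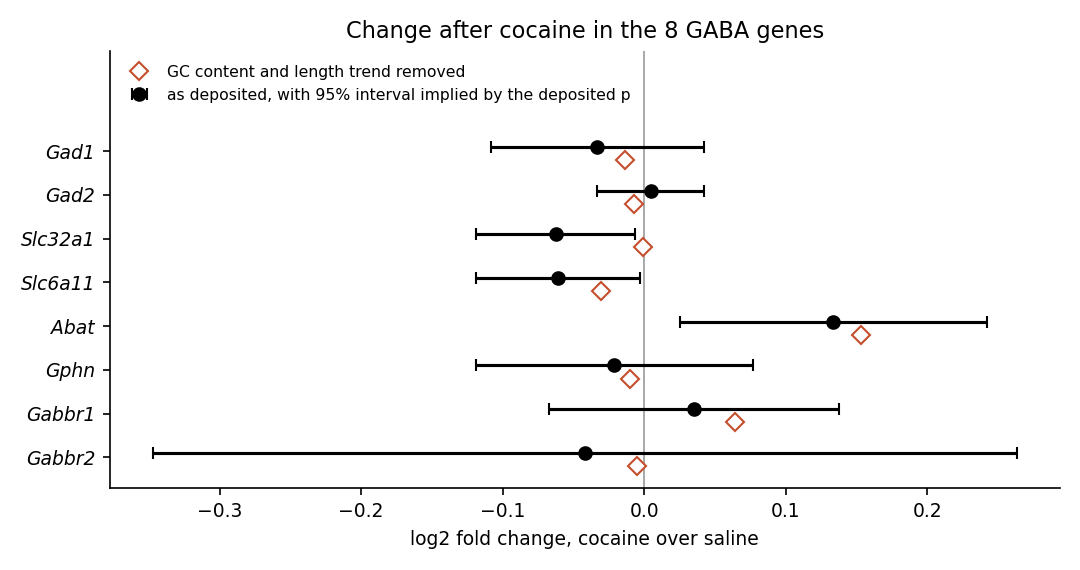
Log2 fold change of cocaine over saline (horizontal axis) for the 8 genes. Filled circles are the deposited values with the 95% interval implied by the deposited p, and open diamonds are the values after removal of the GC content and length trend; 5 of the 8 intervals span 0, and the interval of Gabbr2 is the widest, from -0.35 to 0.26.

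Gphn encodes gephyrin, the scaffold under glycine receptors and many GABA-A receptors, which also carries out the last steps of molybdenum cofactor synthesis in all tissues. It had the lowest level of the 8 genes, with 25.3 FPKM in the cocaine group and 25.7 FPKM in the saline group. The log2 fold change in the authors' deposited table was -0.021 (p = 0.671), with an implied interval of -0.12 to 0.076. Of 22 gephyrin partners and genes of the inhibitory postsynapse, 19 were tested by the authors. By the q of the authors' deposited table, 0 rose, 1 fell and 18 missed the threshold, with a median of -0.019. Among all tested records 1.23% passed on q. The fall was Lhfpl4, a membrane protein that joins GABA-A receptors to neuroligin 2. Lhfpl4 had 45.8 FPKM in the cocaine group and 49.4 FPKM in the saline group (log2 fold change -0.11, q = 0.00272 in the authors' deposited table), and -0.062 with the GC content and length trend removed. Pfn1, an actin-binding partner of gephyrin, had 103 FPKM in the cocaine group and 113 FPKM in the saline group and missed the threshold (q = 0.0589 in the authors' deposited table). Nlgn2, the neuroligin of inhibitory synapses, had 81.3 and 80.4 FPKM in the cocaine and saline groups (p = 0.877 in the authors' deposited table).

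The GABA-B receptor works as a heterodimer in which the Gabbr1 subunit binds GABA and the Gabbr2 subunit couples to G proteins and brings the pair to the cell surface. Gabbr1 had the highest level of the 8 genes, with 339 FPKM in the cocaine group and 331 FPKM in the saline group. Its log2 fold change in the authors' deposited table was 0.035 (p = 0.499), with an implied interval of -0.067 to 0.14. Gabbr2 had 32.0 FPKM in the cocaine group and 32.9 FPKM in the saline group. In the authors' deposited table its log2 fold change was -0.042 (p = 0.787). The Gabbr1 level was 10.6 times that of Gabbr2 after cocaine and 10.1 times after saline.

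Gabbr2 was the least precisely measured of the 8 genes. Its implied standard error of 0.16 was larger than that of 88.0% of the 1016 tested genes within 1.2-fold of its level, whose median was 0.086. The interval of -0.35 to 0.26 admits changes from -21.4% to 20.0%. Slc6a11, at nearly the same level, had an implied standard error of 0.030. The implied standard error of Gabbr2 is larger than the log2 fold change of Abat, and the p of Gabbr2 does not show that the groups were equal.

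The GABA-B auxiliary and effector genes gave a single call. Of the KCTD subunits that attach to GABA-B receptors and set their kinetics, 3 of 4 had a tested record in the authors' deposited table, and 0 passed (median -0.067; at a raw p under 0.05, 0 were higher and 1 lower). Kctd8 had 10.6 FPKM in the cocaine group and 11.6 FPKM in the saline group (p = 0.0477), and Kctd16 had 9.24 and 8.77 FPKM in the cocaine and saline groups (p = 0.461), both p-values from the authors' deposited table. Of 16 effectors (potassium channels, G proteins, calcium channels and adenylyl cyclases) 1 rose, 0 fell and 15 did not pass, with a median of -0.0048. At a raw p under 0.05, 2 were higher and 3 lower. Of all tested records, 2.02% were higher and 3.74% lower at that p, and 1.23% passed on q. The rise was Adcy1, a calmodulin-stimulated adenylyl cyclase, with 18.9 FPKM in the cocaine group and 17.7 FPKM in the saline group (log2 fold change 0.095, q = 0.00403 in the authors' deposited table). Gnai2, an inhibitory G protein subunit, had 82.7 FPKM in the cocaine group and 88.6 FPKM in the saline group and came nearest to the threshold on the lower side (q = 0.0772 in the authors' deposited table). Adcy5, the main striatal cyclase, had 268 and 272 FPKM in the cocaine and saline groups (p = 0.0359, q = 0.994 in the authors' deposited table). The GIRK channel gene Kcnj9 had 8.37 FPKM in the cocaine group and 9.20 FPKM in the saline group (p = 0.0252, q = 0.830 in the authors' deposited table).

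**Figure D3:**
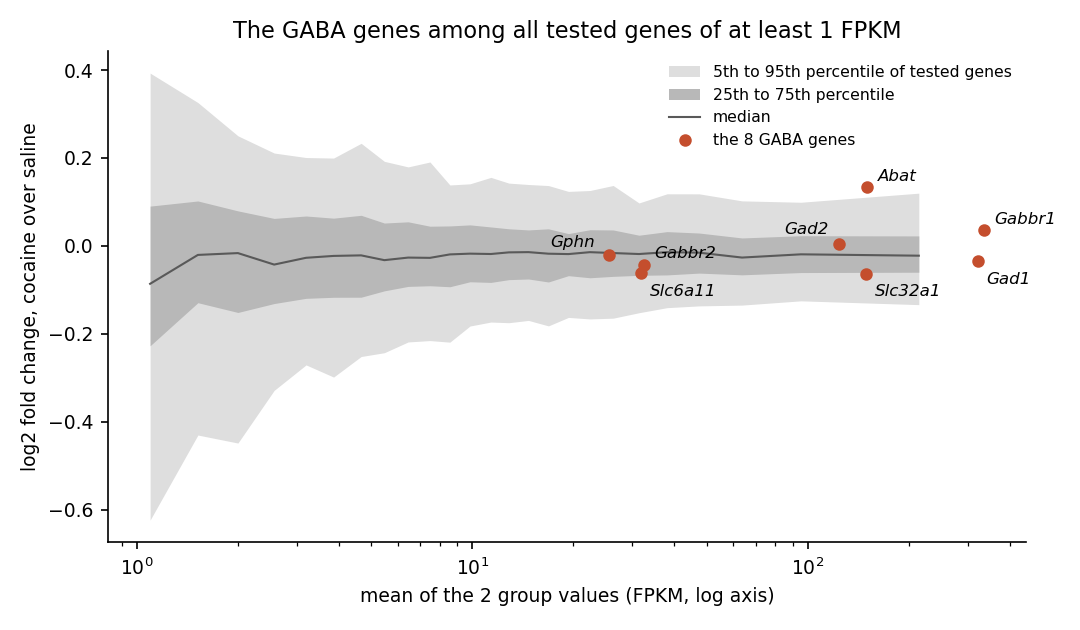
Log2 fold change of cocaine over saline (vertical axis) against the mean of both group values (FPKM, log axis). Grey bands are the 5th to 95th and 25th to 75th percentiles of 12984 tested records of at least 1 FPKM in 25 bins of level, drawn at each bin's median level; Abat (0.13) lies above the outer band and Slc32a1 (-0.063) at the lower edge of the inner band.

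In the order of their levels after cocaine, the 8 genes ran from Gabbr1 and Gad1 through Abat, Slc32a1 and Gad2 to Gabbr2, Slc6a11 and Gphn. The order after saline differed in one place, with Slc32a1 above Abat. Without values per library, whether neighbours in this order differ beyond their spread is unknown. The summed level was 1172 FPKM in the cocaine group and 1166 FPKM in the saline group.

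Over the 8 lists of related pathway genes, 80 of 91 genes were tested, of which 2 rose, 2 fell and 76 missed the threshold on q in the authors' deposited table. That is 5.00% of those tested, against 1.23% of all tested records and 3.13% of those of at least 20 FPKM. The lists also hold genes below 20 FPKM, the called genes Adcy1 and Gabrb1 among them, so the last share is not like for like. The lists were chosen with earlier results of these data known, so these shares only describe them. The median log2 fold change of the 80 tested list genes was -0.0080. The 14 tested GABA-A subunits, the receptor channels on which released GABA acts, gave 1 rise (Gabrb1, 13.3 FPKM in the cocaine group and 11.5 FPKM in the saline group, q = 0.0255 in the authors' deposited table), 0 falls and 13 not passing, with a median of 0.050. Among 7 chloride carriers and channels, which set the driving force of GABA-A currents, 6 were tested and 0 passed in the authors' deposited table, with 0 at a raw p under 0.05 and a median of -0.0096. Slc12a5, the neuronal chloride extruder KCC2, had 147 FPKM in the cocaine group and 150 FPKM in the saline group (p = 0.347 in the authors' deposited table). Slc12a2 and Iqsec3 are marked as failed in the authors' deposited table and were left out.

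**Figure D4:**
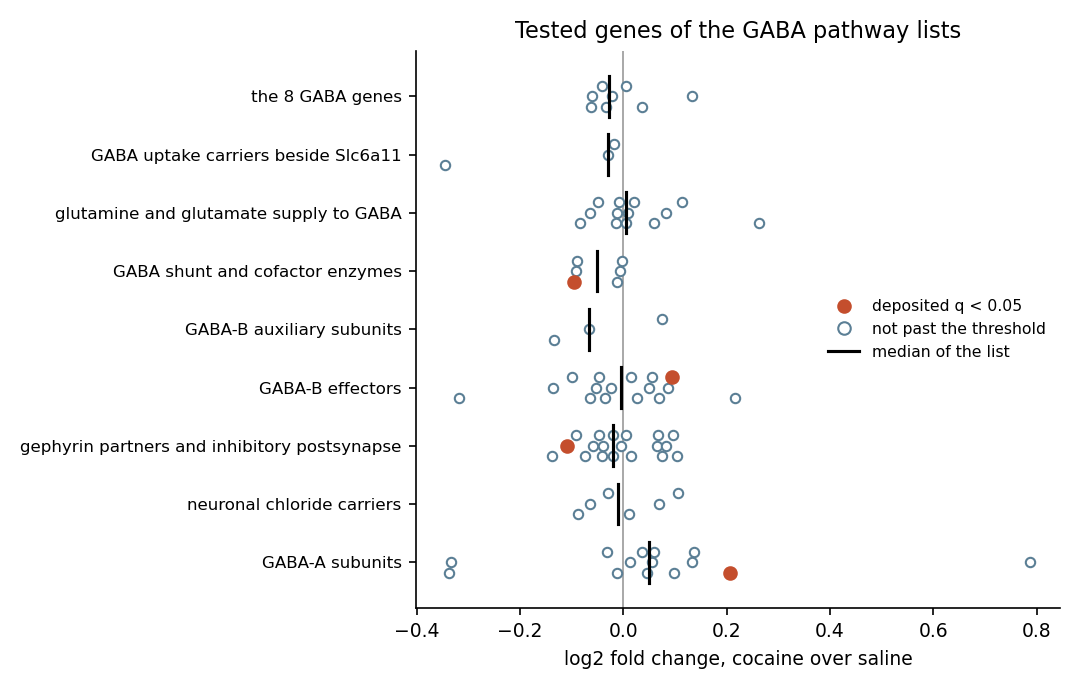
Deposited log2 fold change of cocaine over saline (horizontal axis) of every tested gene in the 8 genes and in 8 lists of related pathway genes (rows). Filled circles passed a deposited q of 0.05, open circles did not, vertical lines are medians, and vertical offsets only separate the points; the 4 filled points are Pdxp, Adcy1, Lhfpl4 and Gabrb1, and none is among the 8 genes.

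Markers of the cells that hold these transcripts were detected. The 14 spiny neuron markers, of the GABAergic projection neurons, ranged from 60.1 to 1498 FPKM in the cocaine group and from 63.3 to 1531 FPKM in the saline group. They summed to 4213 FPKM after cocaine and 4313 FPKM after saline. Of the 14, 3 lay above 0 and 11 below, beside 38.5% above 0 among tested records of at least 20 FPKM. None of the 14 passed in the authors' deposited table, where 1.23% of all tested records did. At a raw p under 0.05, 1 was higher and 4 lower, beside 3.72% and 7.90% of the records of at least 20 FPKM. Of 13 interneuron markers 1 fell, Cck, a peptide gene that cortical neurons express too (39.6 FPKM in the cocaine group and 48.0 FPKM in the saline group, q = 0.0127 in the authors' deposited table), with a median of -0.0019. Of 8 cortical glutamatergic markers 1 fell, Slc17a7, and their sum was 65.0 FPKM after cocaine and 70.9 FPKM after saline. Slc17a7 alone gave 44.9 FPKM of the cocaine sum and 49.9 FPKM of the saline sum, so the sums mostly follow that gene. Of the 8 cortical markers, 2 lay above 0 and 6 below. All 10 endothelial markers lay below 0, where 41.0% of all tested records lay above 0. Of the 10, 1 fell (Cldn5), and they summed to 43.1 FPKM after cocaine and 53.9 FPKM after saline. Of 7 tested choroid plexus markers 1 rose, Ttr, with 10.8 FPKM after cocaine and 0.668 FPKM after saline. The list summed to 19.8 FPKM after cocaine and 9.49 FPKM after saline. Without Ttr the other 6 summed to 8.99 FPKM after cocaine and 8.82 FPKM after saline, with a median of 0.15. Of the 7 markers, 5 lay above 0 and 2 below. Clic6, the highest of the 6, had 5.65 FPKM after cocaine and 6.42 FPKM after saline. Folr1 had 0.618 and 0.234 FPKM and Kcnj13 0.581 and 0.0658 FPKM, in the same order, and neither passed on q. The 10 oligodendrocyte and 10 microglia markers gave 0 calls in the authors' deposited table (1 and 0 at a raw p under 0.05), with medians of -0.021 and 0.062. The part of these cell types in the values of the 8 genes was not tested.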

How the data were processed

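RNA sequencing of nucleus accumbens RNA was analysed from 1 table for the whole series. TopHat2 2.0.6, Cufflinks 2.0.2 and build NCBIM37 are named per the submitters' processing notes; settings, annotation and strandedness were not given in the sources used here. The columns are those of a Cuffdiff gene table, so the group values deposited by the authors were read as FPKM. The log2 fold change, p-value and q-value are those deposited by the authors; log2 fold changes recomputed from the FPKM lay within 1.28e-05 of them. The authors' q-values were called at 0.05. Standard errors and 95% intervals were derived from the deposited p-value under a normal test. The GC content and length trend was the median of 10 by 10 cells, from the longest transcript in GENCODE M21, matched by identifier for 97.3% of 12984 records of at least 1 FPKM. Promoters came from RefSeq, matched by symbol.

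The standard errors and intervals, the Benjamini-Hochberg adjustment and the trend removal were checked on simulated data (Python 3.11.15, pandas 2.3.3, scipy 1.17.1). The simulated p-values came from a normal test, so the check cannot show that the deposited p-values did. No test of the libraries could be made, and read depth is unknown. The members and lists were chosen with earlier results of these data known. Named list genes were those past the threshold and those with the extreme changes or highest level, plus a few picked with their values known. Some list genes are not reported here. Groups follow the treatment label, since the saline libraries carry the cocaine protocol as their treatment text. Alternatives were other thresholds, adjustments, filters, scalings and a pseudocount.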

Additional observations from a re-analysis of the deposited data

How the results depend on the processing

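The count of 0 calls among the 8 genes was the same at a deposited q under 0.1 and with only genes of at least 5 FPKM. Those settings could not change it, since the lowest deposited q of the 8 was 0.636 (Abat) and all 8 exceeded 20 FPKM. The count was also 0 with p-values adjusted by Benjamini-Hochberg over records of at least 1 FPKM or over all tested records (added after seeing the data). Over the pathway lists the count was 4 as deposited and 4 to 6 under all of these alternatives. A pseudocount of 1, or scaling without mitochondrially encoded genes, moved each log2 fold change of the 8 genes by less than its implied standard error. Centring on the median (a shift of 0.021) moved Gad2 by more, to 0.025. Removal of the GC content and length trend moved Slc32a1 to -0.00097 and Slc6a11 to -0.031, and turned Gad2, which was not called, to -0.0074. The alternatives that leave out a library could not be run, since the table holds no value per library. No paired analysis was possible because the columns are group values that carry no replicate number.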

Other observations

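A Benjamini-Hochberg adjustment of the deposited p-values over the tested records of the table passed 199 records, against 184 by the deposited q. For the 5 genes of the 8 with a p above 0.05 both gave 0.99998. For Abat it gave an adjusted p of 0.480 against the authors' deposited q of 0.636, for Slc32a1 0.654 against 0.880, and for Slc6a11 0.763 against 0.99998, so none of the 3 passed by either.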
